A study of Mus musculus with 20 samples.

Results

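The genes of the signal transducers Stat2, Stat3, Stat4, Stat5a, Stat5b and Stat6, and of the feedback inhibitors Socs1, Socs3 and Cish, were described in macrophages and monocytes sorted from MC38 tumours. The 9 genes were chosen by name, and all 9 were found by Entrez number among the 36528 gene models of the count tables. MC38 is a mouse colon carcinoma line that grows as a transplanted tumour. Cells were sorted for RNA on day 7 of treatment. The groups were macrophages from tumours treated with anti-PD-L1, macrophages from control tumours, monocytes from anti-PD-L1 tumours and monocytes from control tumours, with 5 libraries each and 20 in all. Anti-PD-L1 is an antibody to PD-L1, a ligand of the inhibitory T cell receptor PD-1. The sources used here do not give the mouse strain, the age of the animals, what the controls received or the number of animals per library.

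Cytokine receptors without enzymatic activity of their own rely on bound JAK kinases, which phosphorylate STAT proteins, and the phosphorylated STATs pair, enter the nucleus and bind DNA. In myeloid cells STAT3 is known for signals of interleukin-6 and interleukin-10, STAT5A and STAT5B for GM-CSF, STAT6 for interleukin-4 and interleukin-13, STAT4 for interleukin-12, and STAT2 for type I interferon together with IRF9. SOCS1, SOCS3 and CISH are made in response to STATs and inhibit the receptors or kinases that activated them, so their transcripts are often read as marks of recent cytokine signalling, although RNA levels do not measure phosphorylation.

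The regions just upstream of the inhibitor genes, and of Stat2 from the interferon arm, are shown. Each line gives the 250 bases before the transcription start of the RefSeq table for GRCm38.p6, 5′ to 3′ on the gene's own strand, with motif matches in capitals.
Socs1: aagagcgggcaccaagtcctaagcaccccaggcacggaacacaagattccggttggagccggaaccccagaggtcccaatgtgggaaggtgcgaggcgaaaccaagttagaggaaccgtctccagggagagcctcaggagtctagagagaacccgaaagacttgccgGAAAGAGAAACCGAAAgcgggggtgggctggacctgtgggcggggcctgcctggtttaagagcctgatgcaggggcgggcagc
Socs3: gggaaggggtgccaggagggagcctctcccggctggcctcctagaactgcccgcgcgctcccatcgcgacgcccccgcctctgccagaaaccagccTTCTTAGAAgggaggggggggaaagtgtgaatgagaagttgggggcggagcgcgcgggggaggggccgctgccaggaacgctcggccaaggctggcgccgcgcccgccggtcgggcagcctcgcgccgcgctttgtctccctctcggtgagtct
Cish: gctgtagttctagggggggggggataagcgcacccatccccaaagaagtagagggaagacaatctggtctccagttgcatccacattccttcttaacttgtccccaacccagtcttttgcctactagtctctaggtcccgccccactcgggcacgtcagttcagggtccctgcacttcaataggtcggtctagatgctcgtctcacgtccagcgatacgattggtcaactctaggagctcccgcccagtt
Stat2: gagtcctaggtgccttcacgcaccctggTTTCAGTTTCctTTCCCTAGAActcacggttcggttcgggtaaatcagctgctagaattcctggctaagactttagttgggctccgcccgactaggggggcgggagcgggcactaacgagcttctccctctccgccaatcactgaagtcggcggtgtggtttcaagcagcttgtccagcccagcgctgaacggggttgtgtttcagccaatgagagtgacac
The windows lie at chr16:10785537-10785786 on the minus strand for Socs1, chr11:117969367-117969616 on the minus strand for Socs3, chr9:107296409-107296658 on the plus strand for Cish and chr10:128270248-128270497 on the plus strand for Stat2. The start used for Socs3 lies inside the annotated span of the gene. Both strands were searched for TTCNNNGAA, the letters bound by most STAT dimers, for the same half-sites TTC and GAA set 4 bases apart, a spacing known for STAT6, and for GAAA repeated with 2 bases between the copies (TTTC on the other strand), the core of the interferon-stimulated element bound by the STAT2 complex and by interferon regulatory factors. Matches of different patterns were allowed to overlap. Socs1 held 2 matches of the interferon element that overlap each other, GAAAGAGAAA from -83 to -74 and GAAACCGAAA from -77 to -68 relative to the start. Socs3 held TTCTTAGAA from -154 to -146. Stat2 held TTTCAGTTTC from -222 to -213 and, without overlap, the STAT6 spacing as TTCCCTAGAA from -210 to -201. The Cish window held no match, which says only that these letters are not in it. Of 32851 windows of the same length in the table, 7.02% held TTCNNNGAA, 5.85% held the half-sites 4 bases apart and 2.98% held the interferon element, with 0.18% holding it 2 or more times. Of the other members, Stat4 had 1 match of the interferon element at the second of its starts, and Stat3, Stat5a, Stat5b and Stat6 had none of the 3 motifs. A match is a description of the letters and not evidence of binding.

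The libraries held 30191509 to 36514133 counts, and all 9 genes passed the filter on low counts that left 15390 genes for testing. Levels are given as CPM, the counts of a gene scaled to a common library size with TMM factors. The labelled cell types could be checked against their markers. Of 11 macrophage markers 7 were higher in macrophages in both comparisons of cell types, and 2 were lower in treated and 1 in control tumours. Of 10 monocyte markers 10 were lower in treated and 9 in control macrophages. The macrophage gene C1qa was at 3043 to 5541 CPM in macrophages and 428 to 817 CPM in monocytes, and the monocyte gene Ly6c2 at 3.06 to 23.5 CPM in macrophages and 506 to 2023 CPM in monocytes. Csf1r, which both cell types make, averaged 2439 CPM in treated and 2109.5 CPM in control macrophages, and 2811 CPM in treated and 2116 CPM in control monocytes. Markers of fibroblasts moved with treatment, and the values are given beside the treatment results. In bulk samples, fewer cells of a type and less RNA per cell cannot be told apart.

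Levels of the genes can be compared with one another only per length, on the scale of the deposited nRPKM (reads divided by gene length and by 1 factor per library). Relative to the total counts, that factor ran from 0.83 (treated monocyte replicate 2) to 1.20 (control macrophage replicate 5). Socs3 stood first in each group, at 179 ± 11.2 nRPKM in treated macrophages, 156 ± 28.4 in control macrophages, 353 ± 35.8 in treated monocytes and 251 ± 66.3 in control monocytes (SD, n = 5 each). Stat3 and Stat6 came next by mean in each group, at 70.2 ± 3.46 and 71.3 ± 3.34 nRPKM in treated macrophages. Their ranges overlapped except in treated monocytes, where Stat3 (117 to 141 nRPKM) lay above Stat6 (95.1 to 109). In treated monocytes the mean of Socs1 (101.1 nRPKM, range 68.4 to 168) was close to that of Stat6 (101.5), and its range spanned both genes. In control monocytes Stat2 (39.1 to 76.6 nRPKM) and Socs1 (29.0 to 65.5) overlapped Stat6 (58.1 to 107.5). The lowest genes were Stat4 and Stat5a, whose group means lay between 3.83 and 7.74 nRPKM.

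Between these ends stood, by their means, Stat2, Socs1, Stat5b and Cish. In treated macrophages the order was Stat2, Socs1, Stat5b and Cish, and only Stat2 and Socs1 overlapped in range. In treated monocytes the order was Socs1, Stat2, Cish and Stat5b, and of these neighbours only Cish and Stat5b did not overlap. In control monocytes the means of Stat2 (52.9 ± 14.3 nRPKM) and Socs1 (50.4 ± 14.6 nRPKM) were close and their ranges overlapped, while control macrophages had the order of treated ones. Stat5b thus stood above Cish in both macrophage groups and below it in both monocyte groups, with overlapping ranges in control monocytes. Cish, the inhibitor first found as a target of STAT5, was at 8.11 ± 1.89 nRPKM in treated and 6.18 ± 1.69 nRPKM in control macrophages, beside Stat4, whose range it overlapped in both groups. In monocytes it was at 42.3 ± 10.1 nRPKM in treated and 27.7 ± 7.41 nRPKM in control tumours, well above Stat4 and Stat5a.

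**Figure D1:**
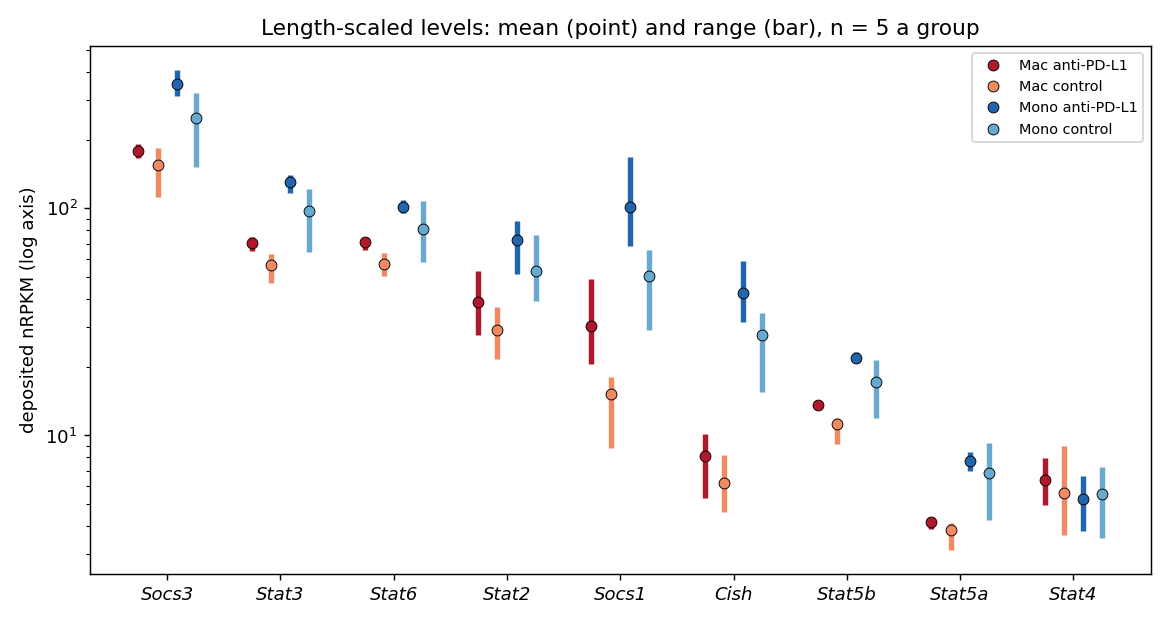
Deposited nRPKM of the 9 genes on a log axis, with the mean as a point and the lowest to highest of 5 libraries as a bar, for macrophages and monocytes from anti-PD-L1 and control tumours. Socs3 stood highest in each group (179, 156, 353 and 251 nRPKM), and Cish shows the widest gap between the cell types.

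After anti-PD-L1, Socs1 rose close to 2-fold in both cell types, and in monocytes Stat3, Stat5b, Stat6, Socs3 and Cish rose as well. A gene was taken as risen or fallen when its Benjamini-Hochberg adjusted p from edgeR's quasi-likelihood test over all 15390 genes was under 0.05. In macrophages 1 of the 9 genes rose, where 1.73% of all genes tested rose, and in monocytes 6 of 9 rose, where 9.92% of all genes did. None fell in either cell type, where 2.92% of all genes fell in macrophages and 15.4% in monocytes. The median log2 fold change of the 9 genes was 0.29 in macrophages and 0.43 in monocytes, beside -0.01 and 0.02 over all genes tested. The shares over all genes moved with single libraries, since the number called ran from 14 (without replicate 4 of treated or replicate 5 of control macrophages) to 1928 (without control macrophage replicate 4) in macrophages, against 715 in the fit of all libraries. In monocytes it ran from 1883 (without control monocyte replicate 3) to 5359 (without control monocyte replicate 5), against 3900. All 9 had a positive value in macrophages and 8 in monocytes, Stat4 being the exception.

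**Figure D2:**
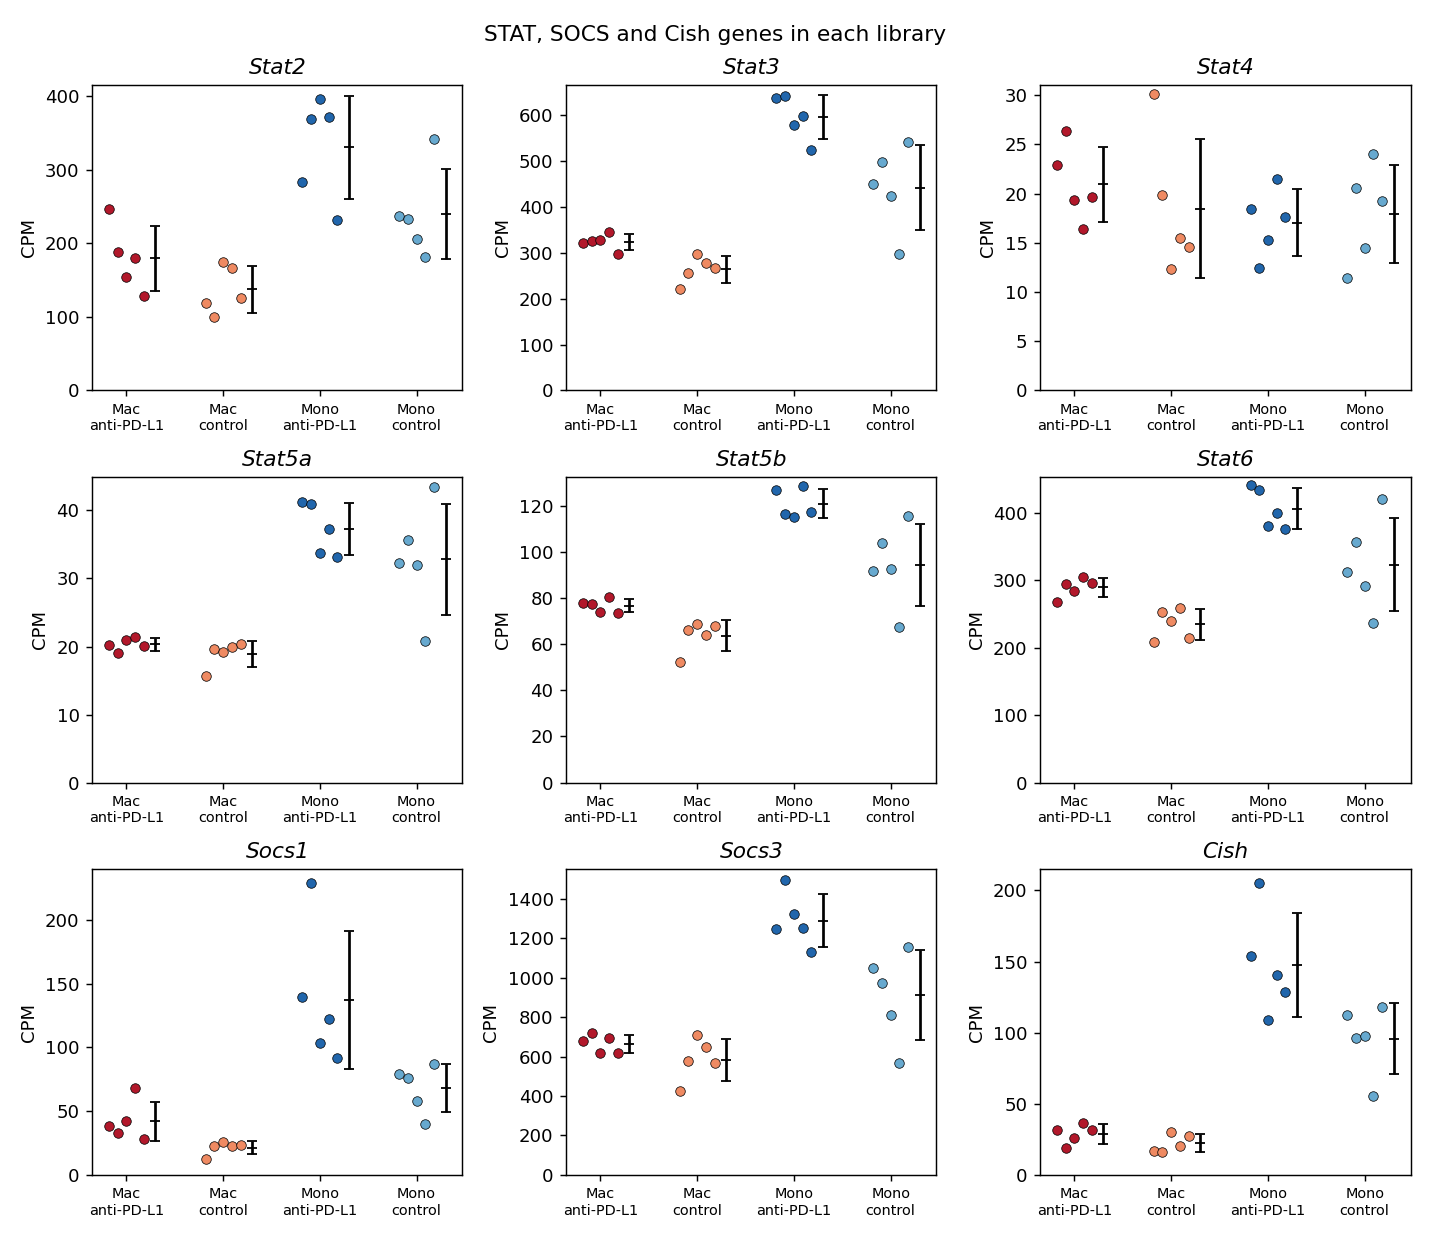
CPM of each gene in each of the 20 libraries (points), with the group mean and SD (bar), for macrophages and monocytes from anti-PD-L1 and control tumours. The treated Socs1 libraries lie above all control ones of the same cell type, and Cish is at 16.3 to 36.2 CPM in macrophages against 55.2 to 205 CPM in monocytes.

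Socs1 (Entrez 12703, chromosome 16, 10783808 to 10785536), which blocks JAK kinases and is known as the main brake on interferon-gamma signalling, was the gene with the largest change. In macrophages it was at 38.4, 32.97, 42.5, 67.8 and 28.2 CPM in treated tumours and 12.4, 22.5, 25.5, 22.5 and 23.1 CPM in control tumours. Each treated library lay above each control library, with the treated replicate 4 highest and the control replicate 1 lowest. The change on the log2 scale was 0.99 (SE 0.27, 1.98-fold, edgeR adjusted p = 0.0475). In monocytes Socs1 was at 139.5, 229, 104, 123 and 91.8 CPM in treated tumours and 79.3, 75.7, 58.0, 40.2 and 86.7 CPM in control tumours. The groups again did not overlap, and treated replicate 2 stood far above the others. This gave a log2 fold change of 1.02 (SE 0.27, 2.02-fold, adjusted p = 0.0131).

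The call of Socs1 in macrophages lay close to the threshold. It was lost in 12 of 20 fits that left out 1 library, with adjusted p between 0.0284 and 0.12 over the 20 fits and log2 fold changes between 0.79 and 1.14. Among macrophages it was lost without treated replicate 1, 3, 4 or 5 (adjusted p = 0.08, 0.0849, 0.12 and 0.0503) and without control replicate 1, 3 or 5 (0.102, 0.0585 and 0.111). Among monocytes, which shared the estimate of spread, it was lost without treated replicate 1, 4 or 5 (0.0567, 0.0525 and 0.0531) and without control replicate 1 or 2 (0.0603 and 0.0558). It was also lost with limma-voom (0.0876), without a filter on low counts (0.0512) and with a stricter filter (0.0534). In monocytes the call of Socs1 was lost in 1 of 20 such fits, without treated replicate 2 (log2 fold change 0.73, adjusted p = 0.0528).

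Socs3 (Entrez 12702, chromosome 11, 117966079 to 117970336), which binds the shared receptor chain gp130 and limits STAT3, rose in monocytes. It was at 1247, 1497, 1326, 1251 and 1132 CPM in treated monocytes and 1051, 975, 814, 568 and 1155 CPM in control monocytes. Only the control replicate 5 reached into the treated range, and control replicate 4 was lowest. A log2 fold change of 0.50 (SE 0.16, adjusted p = 0.0262) resulted, which lost the call without treated replicate 1, 2, 3 or 4 (adjusted p = 0.0509, 0.084, 0.0633 and 0.0591) or control replicate 3 or 4 (0.0727 and 0.0842). In macrophages Socs3 was at 678, 719, 617, 693 and 620.2 CPM in treated tumours and 423, 577, 707, 649.5 and 565 CPM in control tumours. These ranges overlapped, and the log2 fold change of 0.19 (SE 0.16, adjusted p = 0.514) did not pass.

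Cish (Entrez 12700, chromosome 9, 107296659 to 107302784), an inhibitor induced by STAT5, rose in monocytes near the threshold. It was at 154, 205, 109, 140.5 and 129 CPM in treated monocytes and 112, 95.9, 97.3, 55.2 and 118 CPM in control monocytes. The lowest treated library lay below the 2 highest control libraries, and control replicate 4 stood well below the rest. The log2 fold change was 0.62 (SE 0.22, adjusted p = 0.0458), and 13 of 20 fits without 1 library lost the call, with adjusted p between 0.032 and 0.163 over the 20. The highest of them came without treated monocyte replicate 2 (0.163) and control monocyte replicate 4 (0.126), where the log2 fold changes were 0.45 and 0.46. The other 11 lost it without treated monocyte replicate 1, 4 or 5 (0.0909, 0.0728 and 0.0569), control monocyte replicate 1, 2 or 3 (0.0504, 0.0632 and 0.0875), treated macrophage replicate 1, 3, 4 or 5 (0.0564, 0.0559, 0.0504 and 0.0562) and control macrophage replicate 4 (0.0534). In macrophages Cish ranged over 18.8 to 36.2 CPM in treated and 16.3 to 30.0 CPM in control tumours, with a log2 fold change of 0.37 (SE 0.22, adjusted p = 0.342). Of the exon bases of Cish, 4.07% overlap the opposite-strand model Gm17040 and 7.46% overlap Gm17041, and the strand setting of the counting is not given in the sources used here, so reads of these models cannot be told apart from those of Cish.

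Stat3 (Entrez 20848, chromosome 11, 100886806 to 100939594), the transducer of interleukin-6 and interleukin-10 signals, rose in monocytes. It was at 637, 643, 578, 599 and 524 CPM in treated monocytes and 450.1, 498, 423, 298 and 543 CPM in control monocytes. The highest control library, replicate 5, lay within the treated range, and replicate 4 was lowest. The log2 fold change was 0.43 (SE 0.12, adjusted p = 0.0169), which lost the call without treated replicate 2 (0.38, adjusted p = 0.0519). In macrophages Stat3 was at 321, 326, 327, 347 and 298 CPM in treated tumours and 220.4, 256, 297, 278 and 268 CPM in control tumours. The groups did not overlap, by a margin of less than 1 CPM, and the log2 fold change of 0.29 (SE 0.12, adjusted p = 0.146) did not pass.

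Stat5b (Entrez 20851, chromosome 11, 100780731 to 100859004), a transducer of GM-CSF signals, gave the same picture. It was at 127, 116, 115, 129 and 117 CPM in treated monocytes and 92.0, 104, 92.7, 67.4 and 116 CPM in control monocytes. Control replicate 5 alone reached the treated range. In monocytes this was a log2 fold change of 0.36 (SE 0.11, adjusted p = 0.0204), lost without treated replicate 1 or 4 (adjusted p = 0.0544 and 0.0698) or control replicate 3 or 4 (0.0527 and 0.0655). In macrophages it was at 77.7, 77.6, 73.9, 80.5 and 73.7 CPM in treated and 52.2, 66.2, 68.6, 64.1 and 67.8 CPM in control tumours. All treated libraries lay above all control ones, and the log2 fold change of 0.27 (SE 0.11, adjusted p = 0.131) did not pass.

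Stat6 (Entrez 20852, chromosome 10, 127642955 to 127660987), the transducer of interleukin-4 signals, was at 442, 435, 381, 399.5 and 376 CPM in treated monocytes and 312, 357, 292, 237 and 420.3 CPM in control monocytes. Control replicate 5 lay within the treated range and the other control libraries below it. The log2 fold change was 0.33 (SE 0.12, adjusted p = 0.0423), a call that held in 2 of 20 fits without 1 library, those without control monocyte replicate 2 or 5, and in the other 18 the adjusted p was between 0.0515 and 0.17. In macrophages it was at 269, 295, 284, 305 and 296 CPM in treated and 208, 253, 239.6, 259 and 215 CPM in control tumours. These groups did not overlap, and the log2 fold change was 0.30 (SE 0.12, adjusted p = 0.112). Stat6 passed in macrophages when only the macrophage groups were fitted (0.29, adjusted p = 0.0484), and Stat3, Stat5b and Stat6 passed without control monocyte replicate 4 (0.34, 0.31 and 0.35, adjusted p = 0.039, 0.0371 and 0.0451).

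The number of the 9 genes called in monocytes depended on which libraries were fitted. With only the monocyte groups in the fit, Socs1 passed (adjusted p = 0.0371), while Stat3, Stat5b, Stat6, Socs3 and Cish stood at 0.0843, 0.0893, 0.149, 0.0933 and 0.0732. Stat6 was also lost with RLE scaling (0.0576), and Stat6 and Cish without a filter (0.0702 and 0.0565) and with the stricter filter (0.0565 and 0.0607), and Cish with limma-voom (0.0537). The count of 6 fell to 1 without treated monocyte replicate 2, and to 2 without treated replicate 1 or 4 or control replicate 3 or 4.

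The genes without a call in either cell type were Stat2, Stat4 and Stat5a. Stat2 (Entrez 20847, chromosome 10, 128270498 to 128292853), the partner of IRF9 in type I interferon signalling, was at 247, 188, 155, 180.1 and 128 CPM in treated and 119, 100.2, 174, 166 and 126 CPM in control macrophages. In monocytes it was at 283, 368, 396, 372 and 231 CPM in treated and 237, 232, 206, 182 and 341 CPM in control tumours. Both pairs of groups overlapped widely. The log2 fold changes were 0.39 (SE 0.20, adjusted p = 0.253) in macrophages and 0.46 (SE 0.20, adjusted p = 0.0966) in monocytes, where it passed without control replicate 5 (0.60, adjusted p = 0.0247). Stat5a (Entrez 20850, chromosome 11, 100859351 to 100885169), the neighbour and close relative of Stat5b, was at 18.98 to 21.5 CPM in treated and 15.6 to 20.4 CPM in control macrophages, and at 33.2 to 41.3 CPM in treated and 20.8 to 43.5 CPM in control monocytes. Its log2 fold changes were 0.10 (SE 0.14, adjusted p = 0.7) in macrophages and 0.18 (SE 0.13, adjusted p = 0.329) in monocytes, and its direction in both turned in fits that took the fibroblast marker level into account. Of the 50-base stretches of the transcripts, 10.8% of those of Stat5a and 11.8% of those of Stat5b occur in the other gene. For 100-base stretches these shares were 2.85% and 5.18%. Counts of Stat5a and Stat5b are uncertain under unique alignment to that extent.

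Stat4 (Entrez 20849, chromosome 1, 51987106 to 52107189), the transducer of interleukin-12 signals and best known from T and NK cells, was the member that did not move with the others. It was at 22.9, 26.4, 19.3, 16.4 and 19.7 CPM in treated and 30.1, 19.9, 12.4, 15.5 and 14.6 CPM in control macrophages, and at 12.4 to 21.4 CPM in treated and 11.4 to 24.0 CPM in control monocytes. Control replicate 1 of macrophages and control replicate 4 of monocytes, the lowest libraries for most of the other genes, were the highest for Stat4. These 2 libraries have neighbouring sample numbers and were taken as 1 pair (r = 0.69 between their deviations from group means). They may therefore not be separate observations. The log2 fold changes were 0.18 (SE 0.23, adjusted p = 0.682) in macrophages and -0.07 (SE 0.23, adjusted p = 0.84) in monocytes. The 19 markers of T and NK cells summed to 16.6 to 74.5 CPM in treated and 20.004 to 48.1 CPM in control macrophages, and to 35.2 to 139 CPM in treated and 34.4 to 69.8 CPM in control monocytes. Their defining members Cd3e, Cd3d and Ncr1 did not exceed 2.46 CPM in any library and were at 0 in none. The part of such cells in the Stat4 counts was not tested. Stat4 also shares 26.7% of its exon bases with the same-strand model Gm28177, so its level is uncertain.

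Counted over the 9 genes, the treated libraries lay wholly above the control libraries in 4 genes in macrophages (Stat3, Stat5b, Stat6 and Socs1), where 4.11% of all genes tested did so, and in 1 gene in monocytes (Socs1), where 5.09% did. In 7 of the other 8 genes in monocytes, all but Stat4, replicate 4 was the lowest control library and replicate 5 the highest.

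**Figure D3:**
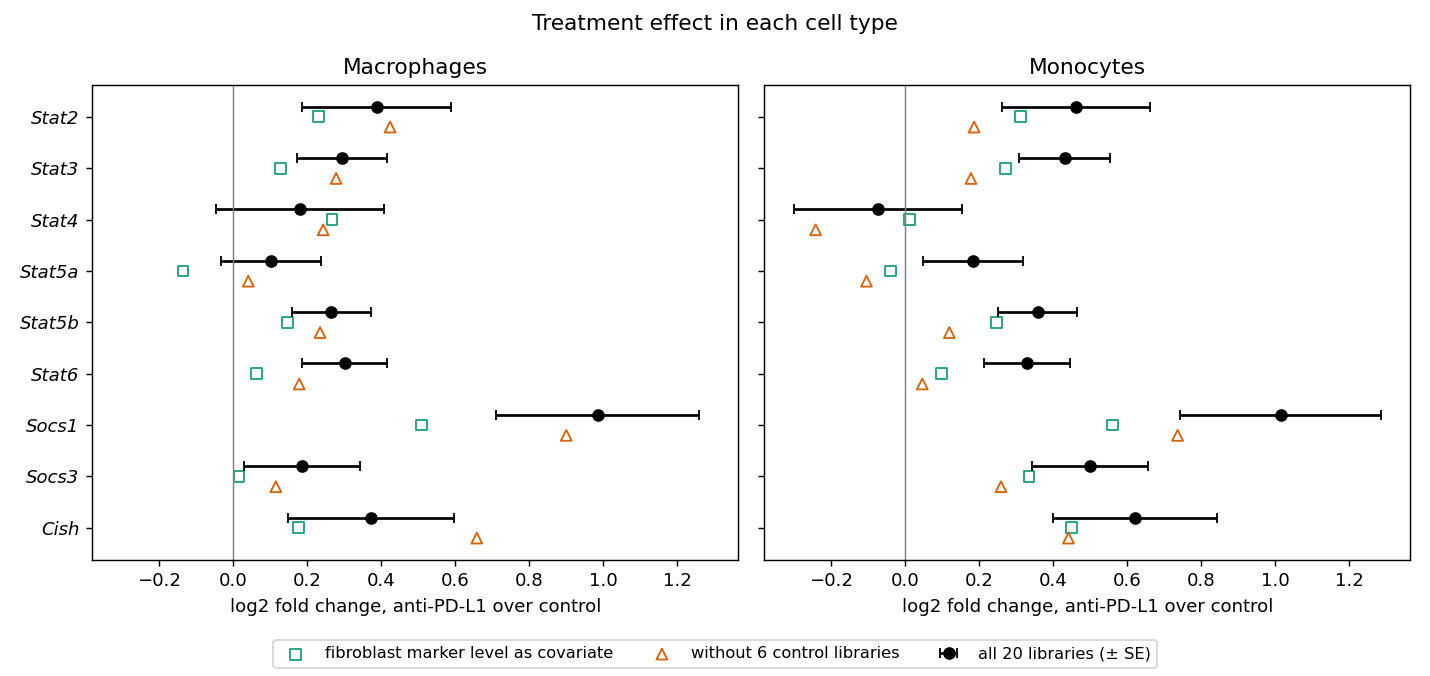
Log2 fold change of each gene, anti-PD-L1 over control, in macrophages (left) and monocytes (right), with SE from all 20 libraries (filled circles), with fibroblast marker level added as a covariate (squares) and after leaving out the 6 control libraries with most fibroblast marker RNA (triangles). The triangles rest on control replicates 2 and 4 of macrophages and 2 and 5 of monocytes. Socs1 lies farthest to the right in both cell types (0.99 and 1.02), and most values are smaller under the alternatives.

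Fibroblast marker RNA was lower in treated libraries and moved with these values. Of 19 fibroblast markers, among them Fn1, which myeloid cells also make, 11 fell in macrophages and 12 in monocytes, and neither Col1a1 nor Col3a1, the defining ones, was at 0 in any library. The markers summed to 1011 to 2173 CPM in treated and 1719 to 6370.4 CPM in control macrophages, and to 4329.6 to 7317 CPM in treated and 7363 to 13096 CPM in control monocytes. In monocytes Col1a1 and Col3a1 reached at most 26.8 and 1768 CPM, so other markers made up most of each sum there. Treated monocyte replicate 1 had the highest sum of its group and the lowest mean log2 CPM (1.93). The sums thus do not compare fibroblast RNA between the cell types. The mean log2 CPM of the 19 markers was 2.16 ± 0.81 in treated and 4.40 ± 1.55 in control macrophages, and 3.03 ± 0.99 in treated and 5.24 ± 1.07 in control monocytes (SD, n = 5 each). With this level as a covariate none of the 9 genes passed in either cell type, and Socs1 was at 0.51 in macrophages (adjusted p = 0.897) and 0.56 in monocytes (adjusted p = 0.464). In monocytes the covariate left Stat3 at 0.27, Stat5b at 0.25, Stat6 at 0.10, Socs3 at 0.33 and Cish at 0.45. A further fit left out the 6 control libraries with the highest level, a choice made after seeing the data. It kept only control replicates 2 and 4 of macrophages and 2 and 5 of monocytes, taken as 2 pairs. Control monocyte replicate 5 was the highest control library of monocytes for most of the 9 genes. Socs1 was then at 0.90 in macrophages (adjusted p = 0.323) and 0.74 in monocytes (adjusted p = 0.393). None of the 9 passed, and a lower marker level cannot be told apart here from the choice of so few control libraries. In this fit Cish in macrophages was larger, at 0.66 against 0.37 with all libraries, and Stat5a and Stat6 smaller, at 0.041 and 0.18. In monocytes Stat3 was at 0.18, Stat5b at 0.12, Stat6 at 0.046, Socs3 at 0.26, Cish at 0.44 and Stat2 at 0.19. Few genes passed at all in these fits, 2 of all genes in macrophages and 3 in monocytes with the covariate, and 70 and 83 without the 6 libraries. The part of fibroblast RNA in the treatment values was not tested beyond these fits.

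**Figure D4:**
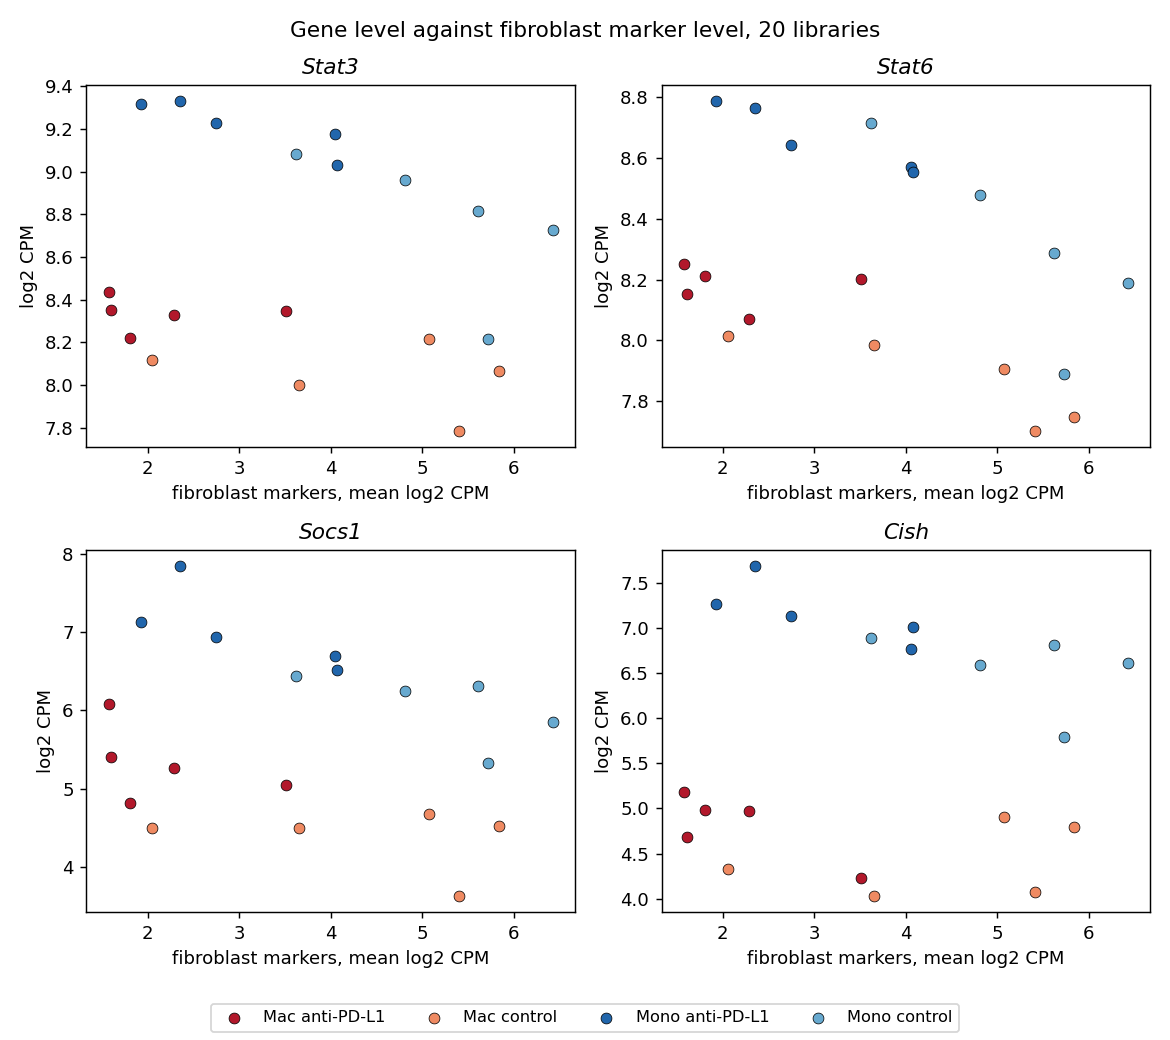
Log2 CPM of Stat3, Stat6, Socs1 and Cish against the mean log2 CPM of 19 fibroblast markers in the 20 libraries, coloured by group. The treated and control ranges of the marker level overlap in both cell types (1.57 to 3.51 against 2.05 to 5.84 in macrophages and 1.93 to 4.07 against 3.62 to 6.43 in monocytes), and within groups Stat6 falls with the marker level (r = -0.683 after subtracting group means) more than Cish does (r = -0.245).

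Whether the treatment effect differed between the cell types was tested by the difference of the log2 fold changes, macrophages minus monocytes. It passed for none of the 9 genes and, by edgeR, for 0 of 15390 genes (0%), with 980 genes and none of the 9 at an unadjusted p under 0.05. DESeq2 called 5 genes and limma-voom with a replicate block 8, none of them among the 9. In the fit with the block, Socs3 differed by -0.33 with an unadjusted limma-voom p of 0.0255 (adjusted p = 0.269). By edgeR, which did not use the pairs, its unadjusted p was 0.173. The edgeR difference was -0.31 for Socs3 (95% interval -0.78 to 0.15) and -0.25 for Cish (-0.91 to 0.41). Without 1 library these 2 values ran from -0.39 to -0.12 and from -0.32 to -0.031, and were nearest 0 without control monocyte replicate 4. For Socs1 it was -0.03 (-0.83 to 0.77) and for Stat3 -0.14 (-0.50 to 0.22). Each of these intervals contains 0 and also differences as large as several of the effects themselves, so that calls in monocytes alone do not show an effect particular to monocytes.

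The other genes of the pathway were described by lists chosen for it. Their counts stand beside 1.73% of all genes tested that rose in macrophages and 9.92% in monocytes. The list genes were not followed through the alternative fits. With the fibroblast covariate only 2 of all genes tested passed in macrophages and 3 in monocytes, so most treatment calls of the lists do not hold in that fit. Without 1 library, the number of all genes called in macrophages fell as low as 14. Of the 4 JAK kinases, Jak3 rose in macrophages (0.33, SE 0.09, adjusted p = 0.0482), and Jak3 (0.35), Jak1 (0.31) and Tyk2 (0.39) rose in monocytes. Jak2 was at 0.53 (SE 0.20, adjusted p = 0.0548) in monocytes. Of the 5 other SOCS genes, Socs2, Socs4, Socs5, Socs6 and Socs7, none passed in either cell type, with median log2 fold changes of -0.17 in macrophages and -0.03 in monocytes. Of 10 other inhibitors, the phosphatase gene Ptpn1 rose in macrophages (0.46, SE 0.11). In monocytes 5 rose, among them Pias1 (0.34), Ptpn1 (0.40), Usp18 (0.71), which blocks the type I interferon receptor, and Ptpn6 (0.56), which encodes the phosphatase SHP-1.

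The lists below are to be read beside the shares of all genes tested, of which 1.73% rose and 2.92% fell in macrophages and 9.92% rose and 15.4% fell in monocytes. The difference of treatment effects between the cell types passed for no gene of any list by edgeR. Of 28 tested receptor genes of 30, 4 rose in macrophages, namely the interleukin-4 receptor gene Il4ra (0.57, SE 0.12), the common gamma chain gene Il2rg (0.61, SE 0.14), the G-CSF receptor gene Csf3r (0.64, SE 0.17) and the interleukin-12 receptor gene Il12rb1 (0.81, SE 0.22). In monocytes 16 rose and 2 fell, with Il7r (1.44, SE 0.30), the interferon-gamma receptor gene Ifngr2 (0.37, SE 0.08), Il2rg (0.64, SE 0.14) and Il12rb1 (0.96, SE 0.22) at the smallest p. Il7r varied widely between treated monocyte libraries, at 71.6 ± 44.6 CPM against 26.4 ± 7.05 CPM in control ones (SD). T and NK cell markers summed to 35.2 to 139 CPM in treated and 34.4 to 69.8 CPM in control monocytes, and the part of such cells in Il7r was not tested. The 2 that fell, Osmr and Ghr, were named after their values were seen and averaged 0.70 and 1.80 CPM in treated monocytes and 4.61 and 11.3 CPM in control monocytes. The receptor median was 0.26 in macrophages and 0.40 in monocytes. Of 14 tested ligand genes of 22, the interleukin-27 subunit genes Ebi3 and Il27 rose in macrophages (0.45, SE 0.09, and 0.75, SE 0.19) and in monocytes (0.63, SE 0.10, and 0.65, SE 0.19). Il15 also rose in monocytes (0.56, SE 0.20), and Il11 fell (-2.04, SE 0.69), at 0.123 CPM in treated and 0.518 CPM in control monocytes.

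Known target genes were taken factor by factor. Of 24 genes known as targets of the STAT2 complex, Zbp1 (0.57, SE 0.15) and Ifi44 (0.66, SE 0.19) rose in macrophages and 19 rose in monocytes, where the median was 0.63. The smallest p in monocytes belonged to Ifi44 (1.16, SE 0.19), to Irf7 (0.93, SE 0.19), which encodes an amplifier of interferon production, and to Oasl2 (0.83, SE 0.18) and Oas1a (0.64, SE 0.15) of the oligoadenylate synthetases, and counts of this last family are uncertain under unique alignment. Of 14 STAT3 targets, Cebpd rose in macrophages (0.35, SE 0.08), and Il1rn (1.08, SE 0.27), the Fc receptor gene Fcgr1 (0.51, SE 0.15) and Cebpd (0.23, SE 0.08) rose in monocytes, with medians of 0.25 and 0.35. Of 11 STAT5 targets none passed in macrophages, and in monocytes the survival gene Mcl1 rose (0.36, SE 0.11) and Spry1 fell (-1.99, SE 0.65), shares of the list near those of all genes. Of 15 tested STAT6 targets of 16, Il4ra, Pdcd1lg2, which encodes PD-L2 (2.52, SE 0.54), and Tgm2 (0.83, SE 0.22) rose in macrophages, and Il4ra (0.46) and Pdcd1lg2 (1.55) in monocytes. Il4ra was counted among the receptors as well. Median values of the STAT6 list were 0.44 in macrophages and 0.05 in monocytes. The medians of all genes tested were -0.01 and 0.02, and the fibroblast marker level given above differed between the same groups.

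Macrophages held less RNA of 8 of the 9 genes than monocytes, with and without treatment, and Stat4 was the exception. In anti-PD-L1 tumours 8 of 9 were lower in macrophages, where 25.7% of all genes tested were lower and 28.2% higher, and in control tumours 8 of 9 were lower, where 20% were lower and 24% higher. The median log2 fold change, macrophages over monocytes, was -0.88 in anti-PD-L1 and -0.74 in control tumours, beside -0.01 and -0.0044 over all genes tested. The 8 calls held in each comparison in every fit that left out 1 library and in each of the other alternatives. Treated macrophages lay wholly below treated monocytes in 7 genes, all but Stat2 and Stat4, where 22% of all genes did so. Control macrophages lay wholly below control monocytes in 5 genes (Stat2, Stat3, Stat5a, Socs1 and Cish), where 10.8% did.

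Cish and Socs1 showed the largest gaps among the 9 genes in both comparisons. Cish was at 18.8 to 36.2 CPM in treated macrophages and 109 to 205 CPM in treated monocytes, a log2 fold change of -2.36 (SE 0.23, adjusted p = 1.01e-07). In control tumours it was at 16.3 to 30.0 CPM in macrophages and 55.2 to 118 CPM in monocytes (-2.11, SE 0.23, adjusted p = 5.99e-07). Even the highest macrophage library lay below the lowest monocyte library, control replicate 4. For Socs1 the log2 fold change was -1.71 (SE 0.28, adjusted p = 3.54e-05) in treated and -1.68 (SE 0.28, adjusted p = 6.84e-05) in control tumours. For Socs3 it was -0.96 (SE 0.16, adjusted p = 4.44e-05) and -0.64 (SE 0.16, adjusted p = 0.0025), and in control tumours the 2 highest macrophage libraries, at 707 and 649.5 CPM, lay above the lowest monocyte library, at 568 CPM.

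Among the transducers, Stat2 stood at -0.88 (SE 0.20) in treated and -0.81 (SE 0.20) in control tumours, Stat3 at -0.88 (SE 0.12) and -0.74 (SE 0.12), and Stat5a at -0.87 (SE 0.14) and -0.79 (SE 0.14). Stat5b, at -0.66 (SE 0.11) and -0.56 (SE 0.11), and Stat6, at -0.49 (SE 0.12) and -0.46 (SE 0.12), were closer to even. The largest adjusted p among these was 0.00297, for Stat2 in control tumours. Stat4 was at 0.30 (SE 0.23, adjusted p = 0.291) in treated and 0.04 (SE 0.23, adjusted p = 0.896) in control tumours, and its ranges overlapped in both.

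**Figure D5:**
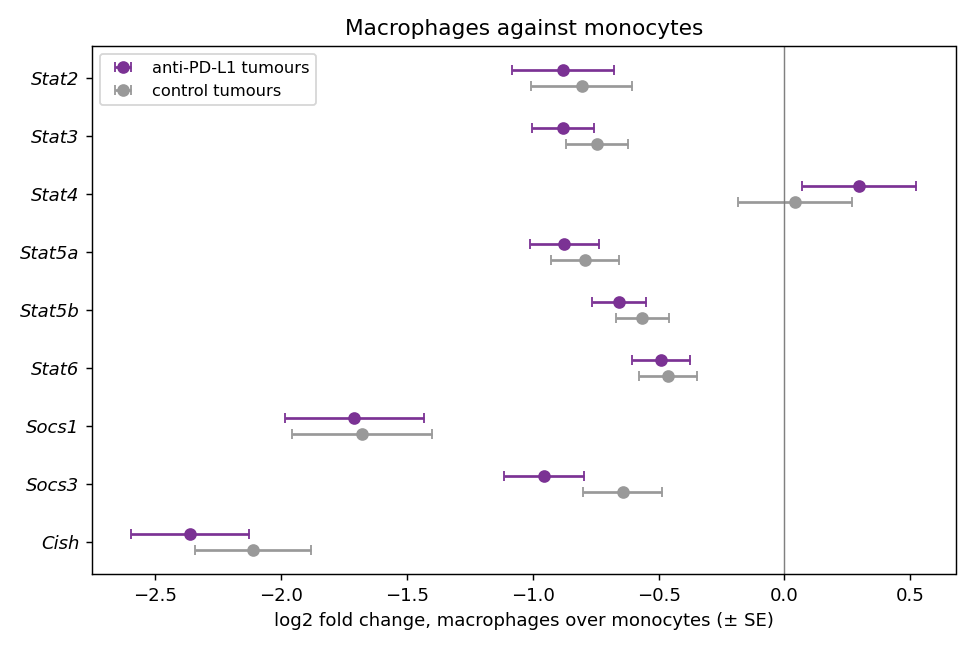
Log2 fold change with SE of each gene, macrophages over monocytes, in anti-PD-L1 tumours and in control tumours. All genes but Stat4 lie left of 0 in both, with Cish farthest (-2.36 and -2.11).

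Upstream and downstream genes of the pathway also differed between the cell types. Jak2 (-1.84 in treated and -1.73 in control tumours), Jak1 (-0.71 and -0.55) and Tyk2 (-0.34 and -0.39) were lower in macrophages and Jak3 (0.24 and 0.27) was higher. Of 28 receptor genes, 15 were lower and 3 higher in treated macrophages, and 15 lower and 4 higher in control ones, beside the shares of all genes given above (25.7% lower and 28.2% higher in treated, 20% and 24% in control macrophages). Csf2rb, the shared beta chain for GM-CSF, was at -1.58 in treated and -1.42 in control tumours, and Il6ra, which binds interleukin-6, at -1.10 and -1.01. Of the ligand genes, Osm, which encodes oncostatin M, averaged 195 CPM in treated and 206 CPM in control macrophages and 976 CPM in treated and 896 CPM in control monocytes (-2.33 and -2.12), and Il6 was at -4.09 and -3.67.

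The counts of target and marker lists that follow stand beside the same shares of all genes tested. These were 25.7% lower and 28.2% higher in treated macrophages, and 20% and 24% in control ones. All 14 STAT3 targets were lower in treated macrophages and 13 of 14 in control ones, with medians of -1.56 and -1.29, Pim1 at -1.95 and -1.71 and Nfil3 at -1.82 and -1.61. Of the 24 targets of the STAT2 complex, 23 were lower in treated macrophages and 20 in control ones, and Ifi44 was higher in both. Of the 11 STAT5 targets 4 were lower and 4 higher in each comparison, so that neither direction prevailed. Osm, Pim1, Il4ra and Socs2 are among the genes that stand on more than 1 list, so the lists are not separate results. Of the 15 STAT6 targets 7 were lower and 6 higher in treated macrophages and 8 lower and 3 higher in control ones. Among them the mannose receptor gene Mrc1 was higher in macrophages (3.48 and 3.44) and Chil3 lower (-7.20 and -7.92). Neutrophil markers differed as well, since all 7 tested were lower in macrophages, and the 10 markers summed to 80.0 to 125 CPM in treated macrophages, 50.7 to 88.3 CPM in control macrophages, 265 to 583 CPM in treated monocytes and 195 to 423 CPM in control monocytes. The defining neutrophil gene Camp was at 0 in all 10 macrophage libraries and at most 1.09 CPM in monocytes, and the part of neutrophils in the cell type values was not tested. Of 11 dendritic cell markers 6 were lower and 3 higher in treated and 4 lower and 3 higher in control macrophages, and of 19 T and NK cell markers 3 were lower in treated and 2 in control ones. Both tested B cell markers were higher in treated macrophages and 1 of them in control ones. Of the 19 fibroblast markers 3 were lower in treated and 1 in control macrophages, and the sums given above do not compare fibroblast RNA between the cell types. The part of these cells was not tested either.

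Within groups, most of the 9 genes varied together. After subtracting group means, Pearson's r of log2 CPM over the 20 libraries was 0.935 between Stat3 and Stat5a, 0.92 between Stat3 and Socs3, and 0.917 between Stat3 and Stat5b. Stat2 was less close, with r between 0.384 (Cish) and 0.667 (Socs3) to the genes other than Stat4. Stat4 ran against all 8 others, with r between -0.679 (Cish) and -0.208 (Stat6). These values are a description, since the libraries share scaling, the 20 were taken as 10 pairs, and the same control libraries stand low for most genes. Against the fibroblast marker level, r was -0.683 for Stat6, -0.531 for Stat5a, -0.481 for Socs1, -0.438 for Stat3, -0.369 for Socs3, -0.354 for Stat5b, -0.245 for Cish, -0.237 for Stat2 and 0.063 for Stat4.

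By the same measure, the genes most like each member among all tested were Oas1b (r = 0.969), Mx2 (0.95) and Trim30d (0.95) for Stat2, and Nod2 (0.963), Sbno2 (0.963) and Crybg1 (0.955) for Stat3. For Stat4 they were Tmem203 (0.891), Zfp963 (0.869) and Nat2 (0.857), for Stat5a Plekhg3 (0.964), Pcsk7 (0.961) and Map7d1 (0.96), and for Stat5b Siah2 (0.956), Foxn2 (0.939) and Kat2b (0.934). For Stat6 they were Ilrun (0.947), Diaph1 (0.939) and Cyfip1 (0.931). For the inhibitors they were Hspa2 (0.921), Rmdn3 (0.919) and Tap2 (0.905) for Socs1, Ripk2 (0.947), Pde4b (0.937) and Tent5c (0.928) for Socs3, and Fam222b (0.912), Apbb3 (0.898) and Inpp4a (0.896) for Cish. No member was among the 3 most alike genes of another member.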

How the data were processed

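RNA-seq counts of sorted macrophages and monocytes were analysed in 4 groups of 5 libraries, grouped by the labels' cell type and treatment. Per the labels' protocols a stranded total RNA kit was used, whereas the molecule label reads polyA RNA. Reads were aligned with GSNAP to GRCm38, per the submitters' processing notes. Not given in the sources used here were the version of the aligner, the annotation, the counting tool with its strand setting and the sorting gates. The deposited files give, per their headers, a count of reads for each gene model and a deposited RPKM value (nRPKM), which equals that count over a gene length times 1 factor per library. Counts were used unchanged for all tests, and nRPKM only to compare levels between genes.

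Symbols and coordinates came from RefSeq on GRCm38.p6, which matched 31049 models (85.0%) holding 97.97% of counts. Promoter sequences came from the RefSeq table of that build, and exon overlaps from GENCODE M21 on GRCm38. Depth was 30191509 to 36514133 counts per library. Chi-square values between replicates were at least 20.45 per degree of freedom, so no library repeats another.

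In R 4.3.3 with edgeR 4.0.16, genes were filtered with filterByExpr, scaled by TMM and fitted with 1 mean per group over 20 libraries by the quasi-likelihood method. P-values were adjusted by Benjamini-Hochberg over 15390 genes with a threshold of 0.05, and SE is the log2 fold change divided by the root of its F value. Alternatives used DESeq2 1.42.0, RLE scaling, limma 3.58.1 (voom), other filters, only the groups compared, a replicate block, the fibroblast marker level as a covariate and leaving out libraries. Correlations used log2 CPM with a prior count of 2.

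Replicate numbers follow the order of the samples and only name them. Neighbouring sample numbers hold 1 macrophage and 1 monocyte library of the same treatment. The deviations of the 10 such pairs from their group means correlated with r between 0.218 and 0.722, against -0.592 to 0.458 (median -0.123) in 40 other combinations, so they were taken as pairs for the block. Each fit without 1 library kept the other library of its pair. Since no label states that libraries came from separate animals, p-values measure the spread between libraries, which may be technical. Control sample numbers are all lower than treated ones, and treatment cannot be told apart from anything that changed along these numbers.

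The 9 genes, the pathway lists and the marker lists were chosen with earlier results of these data known. All 9 are named in every comparison. Of each list the counts are given and up to 4 genes that passed with the smallest p are named per treatment comparison, and for each of the 9 the 3 most correlated genes. List genes named between cell types were chosen after their values were seen.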

Additional observations from a re-analysis of the deposited data

Results flagged for a closer look

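In 4 of 36 groups of 5 libraries, 1 library stood apart from the rest by Dixon's test, and chance alone flags about 1 group in 20. In control macrophages replicate 1 was low for Stat5a (15.6 CPM, the next library at 19.2), Stat5b (52.2 CPM, next 64.1) and Socs1 (12.4 CPM, next 22.5). In control monocytes replicate 4 was low for Cish (55.2 CPM, next 95.9). Both libraries were taken as 1 pair and may not be separate observations. They are among the 6 control libraries highest in fibroblast markers, with mean log2 CPM of 5.41 and 5.72. Without the first of them Socs1 in macrophages was at 0.88 (edgeR adjusted p = 0.102), and without the second Cish in monocytes was at 0.46 (adjusted p = 0.126).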

How the results depend on the processing

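The 8 genes lower in macrophages than in monocytes passed in both comparisons under each alternative and in all 20 fits without 1 library, and the number of the 9 genes differing in treatment effect stayed at 0. In macrophages the number risen after treatment was 0 with limma-voom, without a filter, with the stricter filter, with the fibroblast covariate and without the 6 control libraries, 2 with only the groups compared, and 0 to 4 without 1 library. In monocytes it was 1 with only the groups compared, 0 with the covariate and without the 6 libraries, 4 without a filter and with the stricter filter, and 1 to 7 without 1 library. With the replicate block it was 1 in macrophages (Socs1, adjusted p = 0.0439) and 6 in monocytes, and the block changed no other call. With the covariate Stat5a turned to -0.14 in macrophages and -0.039 in monocytes and Stat4 to 0.011 in monocytes, and without the 6 libraries Stat5a turned to -0.10 in monocytes and Stat4 to -0.18 between control cell types. Without the 6 libraries the differences of treatment effects turned to 0.24 (Stat2), 0.10 (Stat3), 0.15 (Stat5a), 0.12 (Stat5b), 0.13 (Stat6), 0.16 (Socs1) and 0.22 (Cish). Without 1 library, values spanned 0 for Stat4 in monocytes (-0.20 to 0.036) and between control cell types (-0.21 to 0.14), and for the differences of Stat2 (-0.21 to 0.082), Stat3 (-0.20 to 0.042), Stat5a (-0.18 to 0.11), Stat5b (-0.15 to 0.070), Stat6 (-0.12 to 0.13) and Socs1 (-0.21 to 0.25). The cause of these changes was not tested. Over all genes, the number called in macrophages was 715, against 1789 with DESeq2, 191 with limma-voom, 478 without a filter, 419 with the stricter filter, 1193 with only the groups compared, 243 with the replicate block, 2 with the covariate and 70 without the 6 libraries, and 14 to 1928 without 1 library. In monocytes it was 3900, against 2019 with only the groups compared, 3 with the covariate and 83 without the 6 libraries, and 1883 to 5359 without 1 library.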
